A study of Arabidopsis thaliana with 22 samples.

Results

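The transcripts described here were those that stood highest in Arabidopsis roots 1 h after the plants had been moved to fresh nutrient solution. They comprised 150 of the 22746 probe sets tested on the array (0.659%). They were chosen by a rule. Among the 14100 probe sets with a mean intensity of 100 or more over all arrays, the mean of log2(intensity + 1) was taken at each time over both media, and the 150 probe sets were kept for which the smallest of the differences 1 h minus 0 h, 1 h minus 6 h and 1 h minus 24 h was largest. That smallest difference, called the peak value below, ran from 0.56 to 2.77 log2 units among the members. All differences between 1 h and the other times therefore describe how the members were selected, and no test was attached to them. Of the members, 69 could be named by 1 gene, 4 probe sets matched several genes and 77 had no name in the annotation used here, so that the named genes are a sample of the members and not all of them.

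Plants of Landsberg erecta were grown hydroponically for 30 d with Fe-EDTA (40 uM), washed briefly in EDTA (0.1 mM) and moved to solution with Fe (Fe-sufficient, controls) or without Fe (Fe-deficient). Wash and transfer were common to both media and fell 1 h into a light period of 10 h. Roots were harvested at 0, 1, 6 and 24 h on 22 ATH1 arrays. Each of the 8 groups (medium by time) had 3 arrays, except at 24 h, where either medium had 2. The study also harvested roots between 0 and 1 h, not analysed here. Each harvest pooled roots of about 20 plants, and only Fe-deficient plants with raised Fe chelate reductase activity were used. The labels call the replicates biological and number them. The methods speak of independent experiments, and p-values below measure the spread between these arrays, pooled over the groups. The 0 and 24 h harvests fell at the same clock hour and the 1 h harvest later in the morning. As no undisturbed roots were analysed, time since wash and transfer and hour of the light period cannot be told apart. Whole roots were measured, in which more RNA per cell and more cells of a type cannot be told apart either. Of the root cell type lists, only the root hair list had measured genes, EXPA7 and EXPA18, and neither was a member.

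Transcripts that climb shortly after plants are handled and then fall back are a familiar class in roots. Genes of signalling, cell wall modification, defence metabolism and hormone turnover are common among early transcripts, and abundance also follows light and the circadian clock. Under Fe deficiency the best known root transcripts belong to Fe uptake, whose products reduce ferric chelates, acidify the medium and import Fe.

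The members stood high at 1 h in both media. After each member was centred on its own mean, the median member was 0.77, 0.87 and 0.41 log2 units above that mean on the Fe-sufficient 1 h arrays of replicates 1, 2 and 3. On the Fe-deficient 1 h arrays the medians were 1.28, 1.14 and 0.12. On the other 16 arrays they lay between -0.56 and 0.07, and the 6 arrays of 1 h lay above all of them, although Fe-deficient replicate 3 did so by little. The median member was 1.80-fold higher at 1 h than at 0 h, 2.1-fold higher than at 6 h and 2.31-fold higher than at 24 h. The peak value was 1 or more for 34 members. The mean at 1 h was the highest of the 4 times in Fe-sufficient roots for 148 members (18.1% of the probe sets past the intensity floor), in Fe-deficient roots for 148 (18.1%) and in both for 146 (7.62%). The rule took its means from these same arrays, so the levels and counts given here describe the selection and are no support for it.

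**Figure D1:**
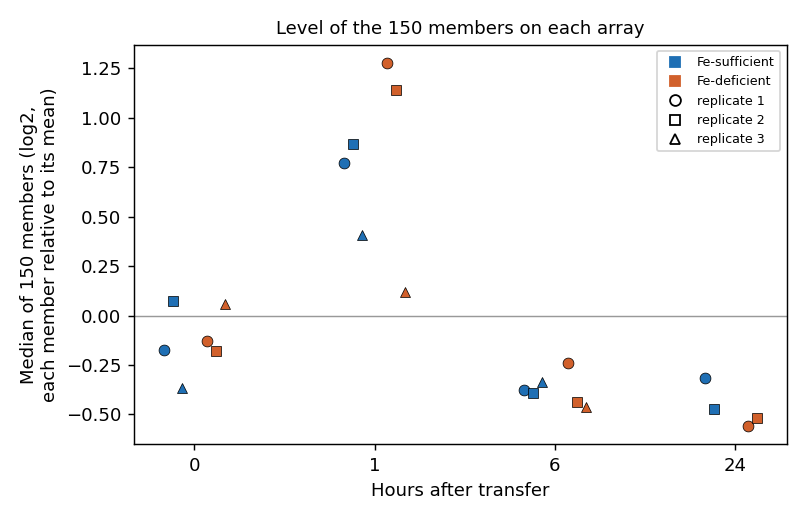
Median level of the 150 members on each of the 22 arrays, in log2 units relative to each member's own mean over all arrays (vertical axis), by hours after transfer (horizontal axis), with medium by colour and replicate number by symbol. The 1 h arrays lie between 0.12 and 1.28 and all others at 0.07 or below, and both replicate 3 arrays are the lowest of their medium at 1 h.

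Single members were less uniform than their median. Only 3 members, PRN, CCR2 and AT4G19720, had all 6 arrays of 1 h above all 16 others (0.0284% of the probe sets past the floor), and AT4G19720 is named because of this count, after its values were seen. For 50 members 4 of the 6 arrays of 1 h were above every other array, for 37 members 3 were, and for 7 members none was. The median SD of the 6 arrays of 1 h was 0.74 log2 units in the members and 0.25 in all probe sets past the floor, where the same members had 0.48 at 0 h, 0.42 at 6 h and 0.33 at 24 h. A rule on means can also take in probe sets whose arrays vary widely, and its part in this spread was not tested.

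The threshold cut through a continuous range. The last members inside were AT2G28510, a Dof transcription factor gene with a peak value of 0.56, an unnamed probe set, and IQD23, a calmodulin-binding protein gene, at 0.56. The first 3 outside had 0.55, and the one with a name among them was AT5G35735.

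For the description by role that follows, 45 of the 69 named members were given a role and 24 were not. The counts by role are therefore not complete. Among genes of hormone turnover, AT2G38240 had the highest peak value of all named members. It codes for a 2-oxoglutarate-dependent oxygenase that hydroxylates jasmonate. Its intensity at 1 h was 799, 75.7 and 58.7 in Fe-sufficient roots (replicates 1, 2 and 3) and 1526, 772 and 90.7 in Fe-deficient roots, against 5.4 to 182.5 (median 42.0) on the other 16 arrays. The 1 h mean was 7.47-fold that of 0 h, and this rested on 3 of the 6 arrays of 1 h, since the remaining 3 lay within the range of the other times. AT5G05600, which codes for a related jasmonate-hydroxylating oxygenase, had 1377, 1129 and 1136 in Fe-sufficient and 2933, 2202 and 539.8 in Fe-deficient roots at 1 h, against a median of 413 at other times. All of its 1 h arrays but Fe-deficient replicate 3 were above the highest other array (819). AT3G61400, of the same enzyme family, was 1.71-fold higher at 1 h than at 0 h with 1 of 6 arrays above all others.

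Genes of phenolic and other secondary metabolism followed. CCR2 codes for a cinnamoyl-CoA reductase. It had 1404, 3283 and 1741 in Fe-sufficient and 2658, 1975 and 1279 in Fe-deficient roots at 1 h, against 356 to 994 elsewhere. Its groups at 1 h did not overlap with those of any other time, and its mean was 2.35-fold that of 0 h and 4.01-fold that of 6 h. AT5G47980, a BAHD acyltransferase family gene, had 129, 306 and 1268 in Fe-sufficient and 127.5, 562 and 959.6 in Fe-deficient roots at 1 h, so that here replicate 3 was the highest. The glycosyltransferase gene UGT73B4, the beta-glucosidase gene BGLU45, the reductase family gene AT5G14700 and the dirigent family gene AT3G13650 were 1.54- to 1.92-fold higher at 1 h than at 0 h. The dirigent family gene was measured at 4350.5 to 9932 at 1 h, with a median of 6382, and at 2670.2 to 4562 elsewhere.

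Of cell wall and apoplast genes, AT5G19110, an aspartyl protease-like gene, stood highest. Its 1 h intensities were 1533, 1474 and 691 in Fe-sufficient and 2419.8, 3364 and 645 in Fe-deficient roots, against 104 to 733 elsewhere. Both replicate 3 arrays fell within the range of the other times, and the other 4 lay above it. AT5G19120, with no gene between it and AT5G19110 on the chromosome, was 1.66-fold higher at 1 h than at 0 h, and its replicate 1 arrays were high at 0 and 6 h as well. AT4G19720, a gene of the GH18 chitinase family, showed little spread, with 285 to 445 at 1 h and 105 to 208 at all other times. AT4G22610, from a lipid-transfer protein family, reached 10170.5 in Fe-deficient replicate 1 at 1 h but 612 in Fe-sufficient replicate 3, against 129 to 2294 elsewhere. AT4G18280, a glycine-rich protein gene, had 534, 113 and 58.9 in Fe-sufficient and 1048, 657 and 84.8 in Fe-deficient roots at 1 h. Its other arrays read 12.2 to 163, so 3 of the 6 arrays of 1 h stood above them. The GH17 glucanase family gene AT4G18340 was 1.59-fold and the pectin methylesterase or invertase inhibitor family gene AT1G14890 2.47-fold higher at 1 h than at 0 h.

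**Figure D2:**
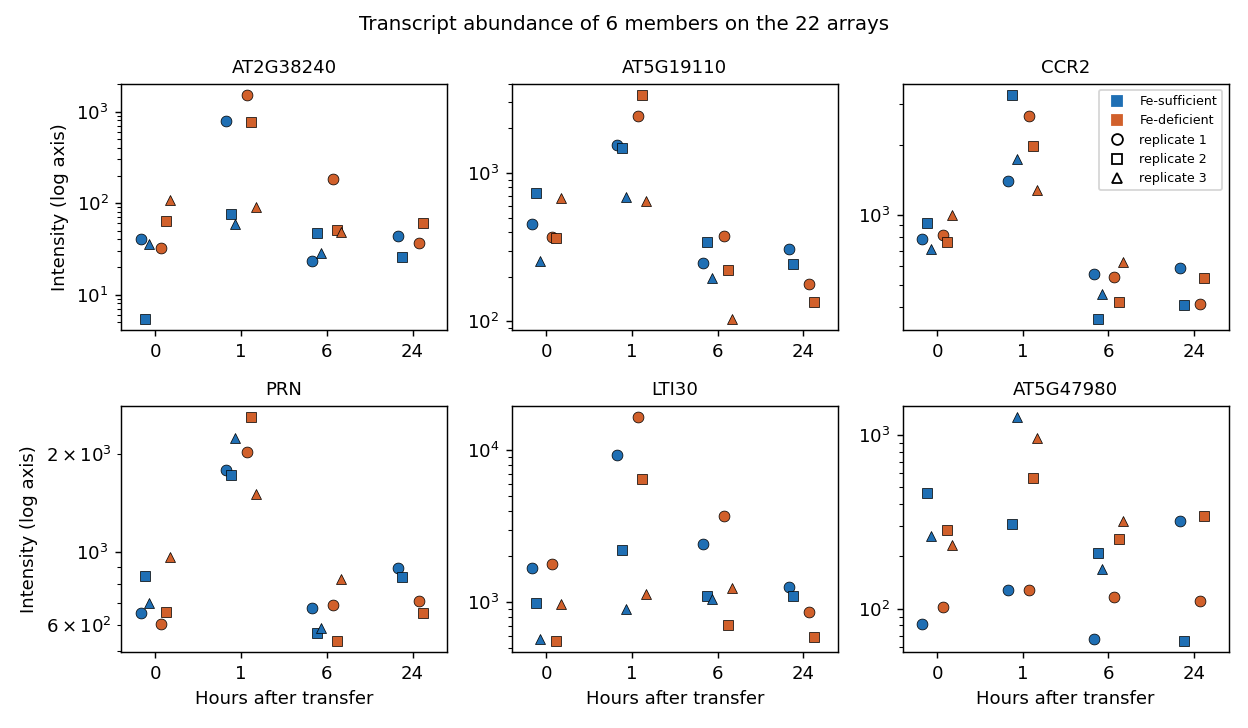
Intensity (log axis, deposited linear scale) of 6 named members on the 22 arrays by hours after transfer, with medium by colour and replicate number by symbol. PRN and CCR2 have all 6 arrays of 1 h above all others, AT2G38240, AT5G19110 and LTI30 have replicate 3 (triangles) at 1 h within the range of the other times, and AT5G47980 has replicate 3 highest at 1 h.

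LTI30, a dehydrin that accumulates in cold and water stress, had 9336.5, 2211 and 897 at 1 h in Fe-sufficient and 16630.3, 6488 and 1139 in Fe-deficient roots. The other 16 arrays lay between 554 and 3679. Replicate 1 was high and replicate 3 was no higher than at other times. The late embryogenesis abundant family gene AT2G23120 was 1.57-fold and the GRAM-domain gene AT5G08350 1.56-fold higher at 1 h than at 0 h.

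The 9 named members given a transporter role were 1.5- to 2.99-fold higher at 1 h than at 0 h. The largest difference was that of AT3G23550, a MATE-type efflux carrier gene, with 454, 569 and 146 in Fe-sufficient and 694, 334.5 and 221 in Fe-deficient roots at 1 h, against 54.0 to 233 elsewhere. Again both replicate 3 arrays lay within the range of other times. GTR1, a glucosinolate transporter gene, had 1802, 755 and 331 in Fe-sufficient and 3180.2, 2020.0 and 368 in Fe-deficient roots at 1 h, and its 0 h arrays (327 to 975) were mostly above those of 6 and 24 h (202 to 480.4). The vacuolar sugar carrier gene SWEET16 was 1.60-fold, the purine transporter gene AZG1 2.06-fold and the amino acid transporter family gene AT3G56200 1.52-fold higher at 1 h than at 0 h.

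Receptor-like kinases and leucine-rich repeat proteins, many of which sense signals at the cell surface, made up 7 of the named members given a role. AT2G26380, a leucine-rich repeat gene, had 254.5, 442 and 323 in Fe-sufficient and 609, 377 and 148.5 in Fe-deficient roots at 1 h, against 35.9 to 192 elsewhere, and 5 of 6 arrays stood above all others. The leucine-rich repeat gene AT2G34930 also had 5 of 6. The kinase genes AT1G53440, AT1G11330 and B120 each had 4 of 6 and were 1.5- to 1.81-fold higher at 1 h than at 0 h.

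Regulators of transcription numbered 5 among the 45 named members given a role. AT1G78410, a VQ motif gene, whose family binds WRKY factors, had 259, 1140.1 and 788 in Fe-sufficient and 316, 491 and 648 in Fe-deficient roots at 1 h, against 151 to 362 elsewhere. Its replicate 1 arrays were the low ones. The VQ motif gene AT2G22880, the AP2/ERF gene AT4G32800, the bHLH gene AT2G43140 and the Dof gene AT2G28510 were 1.48- to 2.06-fold higher at 1 h than at 0 h. PRN, which codes for pirin, a cupin protein that binds a G protein alpha subunit, was the most even of the leading members. It had 1788, 1729 and 2238 in Fe-sufficient and 2022, 2597 and 1511 in Fe-deficient roots at 1 h, and 535 to 965 at all other times. No array of 1 h overlapped with any other.

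AT5G16010, a steroid reductase-like gene, had 1247, 264 and 272 in Fe-sufficient and 2340.3, 1026 and 211 in Fe-deficient roots at 1 h, against 125 to 272 elsewhere. Replicate 1 was far above the rest in both media. AT2G47950, of unknown function, was 2.87-fold higher at 1 h than at 0 h. At the other end, GAT1_2.1, a glutamine amidotransferase gene named after its values were seen, ran from 6.5 to 729 at 1 h and from 4.6 to 1828 elsewhere, so none of its arrays of 1 h stood above all others.

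The course before and after 1 h was asymmetric. The smallest of the 3 differences was that to 0 h for 92 members, that to 6 h for 38 and that to 24 h for 20. The 0 h mean was above the 6 h mean for 102 members (46.4% of the probe sets past the floor) and above the 24 h mean for 119 (48.9%). The order of the means at other times is bound up with the rule, and these counts are descriptions. For 10 members the 0 h mean was at least 1 log2 unit above both later means, among them AT1G32970, a subtilase family gene. It had 129 to 563 at 0 h, 258 to 951 at 1 h and 49.9 to 147 at 6 and 24 h. It was 1.56-fold higher at 1 h than at 0 h and 5.29-fold higher than at 6 h. The other named genes of these 10 were AT4G18280, AT2G26380, AT4G22610, GTR1 and AT5G52680. Only AT1G14890 was at least 0.5 log2 units lower at 0 h than at both later times, by 0.68 and 0.51. These genes were picked after their values were seen.

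**Figure D3:**
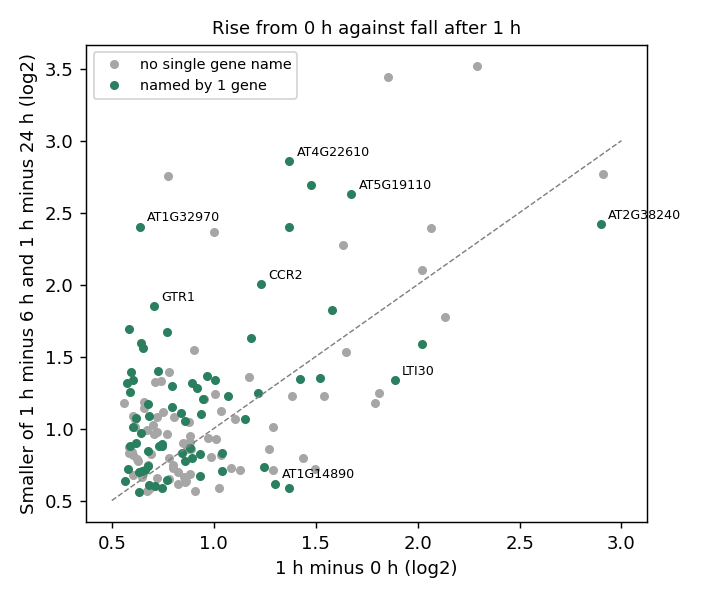
Each point is 1 of the 150 members, with 1 h minus 0 h (horizontal axis, log2) against the smaller of 1 h minus 6 h and 1 h minus 24 h (vertical axis, log2). The dashed line marks equal values. More points lie above the line than below it, AT1G32970 and AT4G22610 far above, while AT1G14890 lies below.

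The question whether the members differed with Fe supply was open to a test, since the rule averaged the media. The criterion of the study was a change above 1.5-fold with an unadjusted p under 0.05, here from limma. The study applied it to values from a probe-level model and reported far fewer genes at each time than are called here. Its counts and the shares below are therefore not comparable. It considered its own differences at 1 h to be unspecific to Fe. At 1 h, 3 members met it (2% of them, beside 1.87% of all probe sets), of which 2 were higher and 1 was lower in Fe-deficient roots. At 0 h 1 member did (2.04%), at 6 h 2 (2.13%) and at 24 h 1 (1.47%). All probe sets, here and below, include those under the intensity floor, from which no member could come. The shares are therefore not like for like. A fit on probe sets past the floor alone, given below, called 5 members at 1 h and a smaller share of its probe sets. No member passed an adjusted p (limma, Benjamini-Hochberg) at any time. At an unadjusted p under 0.05 alone there were 4 at 1 h, beside 544 of the 22746 probe sets tested. The fit shared 1 estimate of the spread over all times, while the members' arrays varied most at 1 h. A fit of the 1 h arrays alone called 0 members. The median difference of the members between media at 1 h was 0.17 log2 units, with 97 of 150 higher in Fe-deficient roots, beside 0.01 for all probe sets. The counts so far took the arrays as unpaired, although arrays of the same replicate number correlated at 0, 1 and 6 h. With the replicate number as a block, which those arrays allow, 13 members met the criterion at 1 h (8.67% of them, beside 2.65% of all probe sets). Of these, 12 were higher (1.6% of all probe sets were) and 1 was lower in Fe-deficient roots. At 6 h 6 members met it (4%, beside 2.88%) and at 0 h 1 did (0.667%, beside 2.55%). None of these passed an adjusted p. The 8 with a name among the higher 12 were AT2G15780, AT4G32800, AT4G08170, AT4G18280, AT2G19780, LTI30, AT2G47950 and AT5G16010. Without Fe-deficient replicate 3 of 1 h, 38 members met the criterion at 1 h, all higher in Fe-deficient roots (2.68% of all probe sets), while 0 did without Fe-sufficient replicate 3 (1.56%). There were 25 without Fe-sufficient replicate 1, 11 of them higher (3.53%). Leaving out replicate 2 of the Fe-sufficient or replicate 1 of the Fe-deficient roots gave 5 each.

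The difference between media at 1 h ran in opposite directions in the replicates. Between the arrays of replicate 1, 137 of 150 members were higher without Fe (46.8% of all probe sets), with a median of 0.61 log2 units. In replicate 2 it was 94 (51.9%) with a median of 0.34, and in replicate 3 it was 46 (53.7%) with a median of -0.13. At 0 h the corresponding medians were 0.04, -0.20 and 0.35, with replicates in another order. At 6 h they were 0.19, -0.07 and -0.14.

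**Figure D4:**
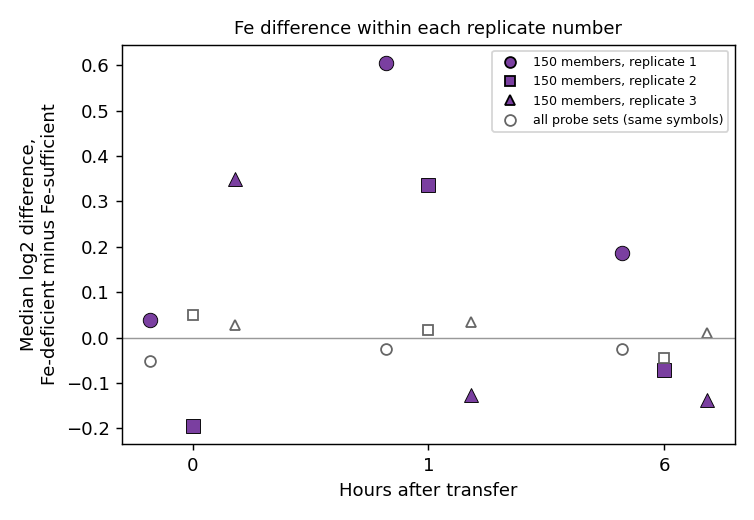
Median log2 difference between the Fe-deficient and the Fe-sufficient array of the same replicate number (vertical axis) at 0, 1 and 6 h (horizontal axis), for the 150 members (filled) and all probe sets (open). At 1 h the members' medians are 0.61, 0.34 and -0.13 for replicates 1, 2 and 3, while all probe sets stay within 0.05 of 0.

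AT2G15780, of the cupredoxin family of small copper proteins, was the 1 named member that met the criterion at 1 h. There it had 411, 229.5 and 153 in Fe-sufficient and 1062, 879.5 and 294 in Fe-deficient roots, and the groups overlapped only through Fe-deficient replicate 3. Its log2 difference was 1.41 ± 0.54 (SE; limma, adjusted p = 1). The unadjusted call was lost without Fe-sufficient replicate 3 (1.08), Fe-deficient replicate 1 (1.06) or Fe-deficient replicate 2 (1.2), and also when the 1 h arrays were fitted alone. At 6 h it had 235, 113 and 107 in Fe-sufficient and 798, 365 and 413 in Fe-deficient roots. These groups did not overlap, and the difference was 1.80 ± 0.54 (limma, adjusted p = 1). At 0 h the difference was -0.22 ± 0.54 and at 24 h -0.18 ± 0.66.

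AT1G21140, known as VTL1, a vacuolar iron transporter-like gene, was the only member held by the lists of Fe genes. It peaked at 1 h in the mean of both media (1.95-fold over 0 h), with 408.5, 1425 and 1248 in Fe-sufficient and 1451, 438 and 393 in Fe-deficient roots, and these groups overlapped. At 6 h it had 846, 267 and 504 in Fe-sufficient and 221, 146 and 70.3 in Fe-deficient roots, with no overlap, and the log2 difference was -1.87 ± 0.65 (limma, adjusted p = 1). At 24 h it had 1028 and 451 in Fe-sufficient and 124 and 125 in Fe-deficient roots, a difference of -2.44 ± 0.79 (limma, adjusted p = 1). Its probe set was named here through the tables of the study, which were drawn from these samples, so this gene is not independent evidence of an Fe difference. The unadjusted call at 6 h was lost without Fe-sufficient replicate 1 (-1.47) or Fe-deficient replicate 3 (-1.43), and that at 24 h without Fe-sufficient replicate 1 (-1.85).

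The height of the 1 h level above the mean of the other times was compared between media for each member. It differed for 5 members at an unadjusted p under 0.05 (limma interaction term, arrays unpaired), 3.33% of them beside 2.25% of all probe sets. With the replicate block it differed for 15 (10%, beside 3.5%), 14 of them with the larger rise in Fe-deficient roots. After adjustment it differed for none. AT4G08170, an inositol phosphate kinase gene, had 465, 227 and 232 in Fe-sufficient and 751, 576 and 270.5 in Fe-deficient roots at 1 h. Its groups overlapped through replicate 1 of the one and replicate 3 of the other. AT1G69840, of the band 7 protein family, had 1464, 1985 and 2102 in Fe-sufficient and 1515, 1276 and 939 in Fe-deficient roots. AT1G53440, a receptor-like kinase gene, had 498.5, 1217 and 735 in Fe-sufficient and 528, 529 and 411 in Fe-deficient roots. For both genes the media overlapped. Without Fe-deficient replicate 3 of 1 h the count was 30, and without Fe-sufficient replicate 1 of 1 h it was 16. It was 1 without Fe-sufficient replicate 3 of 1 h, Fe-deficient replicate 2 of 1 h or Fe-sufficient replicate 2 of 24 h. The share of all probe sets is not given beside these counts. They show only how the number of members called moved with single arrays.

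The rise was also compared among the replicate numbers, which the rule had averaged. The rise, here 1 h minus the mean of 0 and 6 h with both media averaged, had a median over the members of 1.17 log2 units in replicate 1, 1.22 in replicate 2 and 0.54 in replicate 3, beside -0.07, -0.07 and -0.01 for all probe sets. It was above 0 for 148, 149 and 143 members, so most members were higher at 1 h in each replicate, and this the rule had favoured. Replicate 3 had the smallest of the 3 rises for 123 of 150 members (29.7% of all probe sets). The rise differed among replicate numbers for 38 members at an unadjusted p under 0.05 (limma F-test), which was 25.3% of the members beside 6.21% of all probe sets and 4.84% of those past the floor. Replicate 3 was the lowest in 33 of the 38, replicate 1 in 4 and replicate 2 in 1. Those 33 were 22% of the members, where 1.94% of all probe sets were called with replicate 3 lowest. None passed an adjusted p, the lowest of which was 0.475 among the members, and none did among all probe sets, of which 1412 had an unadjusted p under 0.05.

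**Figure D5:**
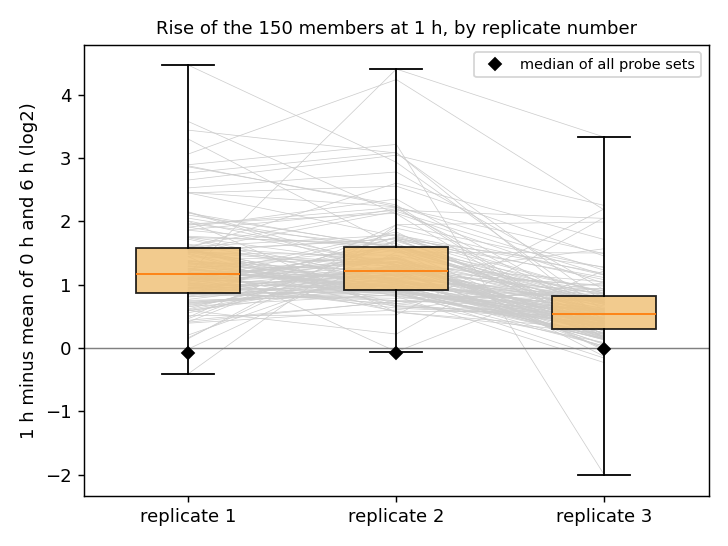
Rise of the 150 members at 1 h (1 h minus the mean of 0 and 6 h, log2, both media averaged; vertical axis) in each replicate number, with boxes for quartiles and median, whiskers to the extremes, thin lines joining each member and diamonds for the median of all probe sets. The members' median is 1.17, 1.22 and 0.54, and the diamonds stay near 0.

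The deviation of replicate 3 was larger at 1 h than at 0 or 6 h. Relative to the mean of the 3 numbers, the median member was at 0.26, 0.25 and -0.56 log2 units in replicates 1, 2 and 3 at 1 h. At 0 h the same medians were -0.07, 0.05 and -0.01, and at 6 h 0.08, -0.04 and -0.04. Because the rule takes means over replicates, probe sets raised strongly in some of them could enter, and the part of this in the share of 25.3% was not tested. Without Fe-deficient replicate 3 of 1 h 20 members differed among numbers (6.01% of all probe sets).

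Among the named members of smallest p, AT2G15780 had rises of 1.51, 1.46 and -0.04 in replicates 1, 2 and 3 (limma F-test, adjusted p = 0.499). The rises of AT5G16010 were 3.3, 1.60 and 0.51 (limma, adjusted p = 0.579), so that replicate 2 also stood below replicate 1. LTI30 had 2.46, 2.23 and 0.14 and AT4G18280 2.77, 3.09 and 0.42. AT3G48450, a gene of the RIN4-like family that acts in plant immunity, had 1.12, 1.43 and -0.01. The opposite order was seen in AT5G47980, with 0.51, 0.52 and 2.2 (limma, adjusted p = 0.631). By contrast PRN had 1.54, 1.73 and 1.28, AT2G26380 1.94, 2.22 and 1.49 and AT3G56200 1.04, 1.21 and 0.87. None of these met the unadjusted threshold, although this does not show equal rises. For AT3G56200 no array of 1 h stood above all others (highest 773.8, beside 793.8 elsewhere). By role, the median rise in replicate 3 was 0.24 for the 3 water-stress genes, 0.29 for the 5 regulators of transcription and 0.30 for 4 genes of other metabolism. It was 0.64 for the 3 genes of hormone turnover, 0.65 for the 8 cell wall and apoplast genes and 0.72 for the 7 receptor and leucine-rich repeat genes. The 9 transporters had 0.77 and the 6 genes of secondary metabolism 0.78. In replicate 1 the medians were 1.35, 1.01, 1.38, 2.05, 1.66, 0.96, 1.04 and 1.03 in the same order. Differences between roles were not tested.

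Genes of well-known early and Fe pathways were looked up in lists. The 24 lists, among them touch and calcium genes, ERF and WRKY factors, jasmonate, auxin, Fe acquisition and Fe storage, held 65 measured probe sets, of which 1, VTL1, was a member (1.54%, beside 0.659% of all probe sets). Most genes of the lists had no measured probe set that could be named, so absence from the members says little. By the criterion of the study 2 of the 65 were higher and 4 lower at 1 h than at 0 h, where 1.45% and 1.68% of all probe sets were. The higher ones were TINY (0.95 ± 0.38, SE) and PSAE-1 (1.15 ± 0.53), a photosystem I subunit gene whose mean intensity was only 9.8 at 0 h and 27.9 at 1 h. The lower ones were CML23 (-1.21 ± 0.30), ORA47 (-1.52 ± 0.40), MYB72 (-1.23 ± 0.57) and OPT3 (-0.71 ± 0.32), none at an adjusted p under 0.05 (limma). MYB72 was also read at low levels at these times, with mean intensities of 79.2 at 0 h and 48.9 at 1 h. Of the 6 touch and calcium genes, CML38 and CML37 were 1.74 and 1.25 log2 units higher at 1 h than at 6 h but 0.20 and -0.30 against 0 h, which kept them outside. The 14 Fe acquisition probe sets had a median of -0.19 for 1 h minus 0 h, beside -0.04 for all probe sets. Most of them, and the Fe storage probe sets, also stand in the study's tables of Fe-responsive genes, which were drawn from these samples. They are therefore not an independent set.

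The members spanned a wide range of levels. Their mean intensity over all arrays ran from 100.6 to 6254 with a median of 423, beside 470.5 for all probe sets past the floor. The named members lay on all chromosomes, with 13, 14, 14, 12 and 16 on chromosomes 1 to 5. Besides AT5G19110 and AT5G19120, AT5G52670 and AT5G52680 were direct neighbours, with 1.73-fold and 1.5-fold higher means at 1 h than at 0 h. Probe sets of neighbouring genes of similar sequence may share signal, and this was not tested.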

How the data were processed

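Root RNA was hybridised to Affymetrix ATH1 arrays, and the authors deposited an intensity on a linear scale for each probe set. Its trimmed mean was 500.04 or 500.05 on each of the 22 arrays, so the arrays were scaled to a common level. The methods name a probe-level linear model, but the program behind these linear values is not given in the sources used here. Of 22810 probe sets, 64 controls were left out. Gene names came from the platform annotation, updated by RefSeq locus (TAIR10.1), and 37 through the study's tables: 13550 probe sets had 1 gene and 9196 were not named, 503 of them because they matched several genes. Coordinates and sequences were not used here.

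Log2(intensity + 1) was fitted with limma 3.58.1 (R 4.3.3) over all 22 arrays in 8 groups. Rises among replicate numbers were tested on the 18 arrays of 0, 1 and 6 h with medium as a term. The Fe-sufficient and Fe-deficient arrays of a number and time served as its repeats. Benjamini-Hochberg adjustment ran over 22746 probe sets. The fits were tested on simulated data. Members and lists were chosen with earlier results of these data known. Text genes were the 12 named members of highest peak value, those beside the threshold, up to 6 per test of smallest p among called members, members of a list and examples of roles; exceptions are marked.

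Deviations of arrays of the same replicate number correlated at 0.12 to 0.45 at 0, 1 and 6 h (different numbers, -0.30 to 0.10), so numbers were taken to pair the arrays there, and not at 24 h (-0.41). Alternatives were quantile normalisation, a pseudocount of 32, the intensity floor, a replicate block, fits within 1 time, other reference times and leaving out single arrays. Arrays have no read depth, and their number limits the precision.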

Additional observations from a re-analysis of the deposited data

Results flagged for a closer look

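For 5 members, beside 2.25% of all probe sets, the rise at 1 h differed between media by the limma interaction term at an unadjusted p under 0.05, with an adjusted p = 1 for each. In Fe-deficient minus Fe-sufficient roots the rise differed by 0.98 ± 0.43 log2 units (SE) for AT4G08170. It differed by -0.60 ± 0.27 for AT1G69840 and by -0.78 ± 0.37 for AT1G53440. The probe sets without a gene name had 0.75 ± 0.30 and -0.75 ± 0.34. With the replicate block AT1G69840, AT1G53440 and the lower of the probe sets without a name missed the unadjusted threshold. Of the 29 settings run, AT1G53440 missed it in 20, AT1G69840 in 14 and AT4G08170 in 9, the last with its smallest difference, 0.67, without Fe-deficient replicate 1 of 1 h.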

How the results depend on the processing

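The counts of members called were small and moved with the fit. With a pseudocount of 32, 5 members met the criterion at 1 h (139 of all probe sets, beside 425). On the 14100 probe sets past the floor alone it was 5 at 1 h (61 of these probe sets) and 2 at 24 h (79). The replicate block gave 13 at 1 h, 6 at 6 h, 2 at 24 h, where the numbers do not pair the arrays, and 15 for the difference in rise between media. It left the count at 0 h at 1. With the numbers of 24 h crossed between media in the block, tried after seeing their correlation, 4 members met the criterion at 24 h and 19 differed in rise. Fits within 1 time gave 2 at 0 h, 0 at 1 h (496 of all), 5 at 6 h and 5 at 24 h (734). Leaving out single arrays gave 0 to 3 at 0 h, 0 to 38 at 1 h, 1 to 3 at 6 h, 0 to 2 at 24 h, 1 to 30 for the difference in rise and 20 to 52 for the difference among replicate numbers. The difference in rise counted 2 members without Fe-sufficient replicate 1 of 0 h or Fe-deficient replicate 2 of 6 h, and 3 without Fe-sufficient replicate 3 of 0 h, Fe-sufficient replicate 1 of 6 h, Fe-deficient replicate 1 or 3 of 0 or 6 h, or Fe-deficient replicate 1 of 24 h. For Fe supply at 0 h the count was 0 without replicate 1 and 3 without replicate 2 of either medium, at 6 h 1 without Fe-deficient replicate 3, at 24 h 0 without Fe-sufficient replicate 1. Leaving out Fe-deficient replicate 2 gave 2 there. Without both replicate 3 arrays of 1 h, an alternative added after seeing the data, 16 members met the criterion at 1 h (1.79% of all probe sets) and 12 differed in rise (1.90%), all higher in Fe-deficient roots. With replicates 1 and 2 alone, added likewise, 11 members differed among numbers (4.32%). Quantile normalisation gave 1, 3, 2 and 1 members at 0, 1, 6 and 24 h, 5 for the difference in rise and 34 among replicate numbers.

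The rule kept 145 of the 150 members on quantile-normalised values, 144 with a pseudocount of 32, 130 and 122 with floors of 50 and 200, and 121 to 146 when single arrays were left out. It kept 90 on Fe-sufficient and 109 on Fe-deficient arrays alone, and 100, 107 and 118 without all arrays of replicate 1, 2 or 3 (added after seeing the data). Of the single-gene differences between media, no direction reversed in these settings. The single-gene value for replicate numbers was the largest minus the smallest rise, which has no direction to reverse. The difference among replicate numbers met its threshold in all 22 settings run for AT5G16010 and AT2G15780, and in 21 for LTI30, AT4G18280, AT3G48450 and AT5G47980. It missed the threshold in 16 of them for AT4G19720, in 15 for IQD23 and AT4G08170, in 14 for AZG1, in 12 for AT3G13650 and in 11 for AT2G38240.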
